A study of Mus musculus with 12 samples.

Results

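The 10 genes described here encode the nuclear-coded machinery that keeps and reads the mitochondrial genome: Top1mt, Tfam, Polg, Polg2, Twnk, Ssbp1, Polrmt, Tfb1m, Tfb2m and Mgme1. They were chosen by name, as the rows of the expression table that carry these 10 gene symbols, and all 10 were found among its 20614 genes. RNA was sequenced from astrocytes of the mouse midbrain region (striatum, thalamus and substantia nigra dissected together), captured with beads against the astrocyte surface antigen ACSA-2 after removal of endothelial cells, myelin and microglia. The 12 libraries came from male mice aged 12 to 14 months, bred on C57BL/6J: 3 of Cd38+/+ mice, 3 of Cd38+/- mice and 6 of Cd38-/- mice. The disrupted Cd38 allele is global, so every cell of the Cd38+/- and Cd38-/- mice carried it, not the astrocytes alone. CD38 is an ectoenzyme that consumes NAD. Values are TPM, a read count corrected for transcript length and scaled so that each library sums to 1000000, so the sequencing depth of a library is unknown and a gene listed at 0 sets no upper limit. Nothing in the labels says which animal each library came from, and the p-values below measure the spread between these libraries.

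Mitochondria hold many copies of a small circular genome, packed by the protein TFAM into nucleoids. The genome is copied by the polymerase POLG with its accessory subunit POLG2, behind the helicase Twinkle (Twnk) and with the single-strand binding protein SSBP1. It is transcribed by POLRMT together with TFAM and the initiation factor TFB2M. TOP1MT is the topoisomerase that relaxes supercoils in this genome, and it derives from the same ancestor as the nuclear topoisomerase TOP1. Astrocytes rely on glycolysis to a large degree but keep mitochondria through their processes. The question asked of the data was whether Top1mt stood apart from the rest of this machinery between the 3 Cd38 genotypes.

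Cd38 itself fell in the order of the labels, though between Cd38+/+ and Cd38+/- libraries only from a mean of 124.52 to 90.62 TPM. It lay between 104.88 and 148.64 TPM in the Cd38+/+ libraries, between 90.36 and 90.80 TPM in the Cd38+/- libraries and between 8.54 and 21.86 TPM in the Cd38-/- libraries. The 11 astrocyte markers checked were present in every genotype, with summed levels of 11457 to 16538 TPM in Cd38+/+, 16889 to 19045 TPM in Cd38+/- and 12947 to 16656 TPM in Cd38-/- libraries. Oligodendrocyte genes summed to 1584 to 7490 TPM in Cd38+/+, 3494 to 11370 TPM in Cd38+/- and 3462 to 18031 TPM in Cd38-/- libraries. Ependymal genes summed to 3006 to 5862, 3119 to 3644 and 3973 to 6235 TPM in the same order. The Cd38+/+ libraries stood apart in how many genes they held. They listed 13160 to 13516 genes above 0, against 16160 to 16327 in Cd38+/- and 15920 to 17906 in Cd38-/-. Of 11373 genes with a mean above 5 TPM, 112 to 221 were listed at 0 in a Cd38+/+ library and 1 to 7 in a library of either other genotype. Erythroid genes (haemoglobins and Alas2) summed to 7770 to 34711 TPM in Cd38+/+, 3228 to 6453 TPM in Cd38+/- and 3805 to 15378 TPM in Cd38-/- libraries. Genes of the dissociation response, such as Fos and Jun, summed to 970 to 1244 TPM in Cd38+/+, 520 to 817 TPM in Cd38+/- and 626 to 1203 TPM in Cd38-/- libraries. Genes of the choroid plexus, such as Ttr and Kl, summed to 45.6 to 308 TPM in Cd38+/+, 199 to 7377 TPM in Cd38+/- and 222 to 1946 TPM in Cd38-/- libraries, with 1 of the 6 at 0 in all Cd38+/+ libraries. The part of these differences in the results below was not tested. In such bulk samples fewer cells of a type and less RNA per cell cannot be told apart.

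Most of the members with a promoter entry share a feature of sequence that played no part in their choice. Of the 9 members that have an entry in the RefSeq promoter table, 6 carry the letters CCGGAAG, a share of 66.7%. The letters, the core bound by GABP and other ETS factors, lie on either strand within the 250 bases before the RefSeq start. The same letters occur in this window for 7.83% of the 27025 genes of the table. Top1mt has no entry. The 7 matches, each with 10 bases on both sides, are shown because most members with an entry carry one. They are read 5′ to 3′ on the strand of the gene from GRCm38.p6, with the match in capitals. CTTCCGG is the same core on the opposite strand.
Tfam, chr10:71238075-71238101, minus strand: ctgccgcggaCCGGAAGtccgggcttc
Polg, chr7:79466295-79466321, minus strand: aggacctcacCCGGAAGtccctctgca
Polg2, chr11:106779550-106779576, minus strand: gggtgacgctCTTCCGGgggcgtggtc
Twnk, chr19:45006438-45006464, plus strand: taaccggtgaCTTCCGGttccggggtt
Twnk, chr19:45006482-45006508, plus strand: gagagttttgCTTCCGGagtcaccgcg
Ssbp1, chr6:40471411-40471437, plus strand: gctccgtgcgCCGGAAGcgagccgctg
Polrmt, chr10:79746608-79746634, minus strand: cctaagagcgCTTCCGGcagtcgcaga

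In 5 of these 6 genes a match began 29 to 47 bases before the RefSeq start, and in Twnk the nearer of its pair began 66 bases before it. The starts differ in the GENCODE annotation. There Tfam begins at chr10:71238280, Polg at chr7:79466362, Ssbp1 at chr6:40471352 and Twnk at chr19:45005663. These starts lie upstream of the matches, which by GENCODE fall within the span of the gene. The matches of Polg2 and Polrmt lie before the start in either annotation. Another 4 motifs were searched on both strands. The GC box GGGCGG was in a window of 6 of the 9 members and of 35.4% of all genes. Twnk has a further RefSeq entry, with the window chr19:45005413-45005662. That window holds no match to CCGGAAG or the GC box, and it holds the CCAAT match counted next. CCAAT was in 1 of the 9 and in 37.5% of all, and AAGATGGC, bound by YY1, was in 1 of the 9 and in 1.83% of all. GCATGCGC, letters of the site bound by NRF1, was in 1 of the 9 and in 2.56% of all. A match describes letters in a window and not a bound site, and a window without one says nothing of the factor.

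By their mean over the 12 libraries the members ran from Ssbp1 at 99.3 TPM through Polg at 62.8, Tfam at 49.5, Tfb2m at 29.3, Polrmt at 27.3, Top1mt at 19.6, Mgme1 at 13.7 and Twnk at 12.6 to Tfb1m at 6.36 and Polg2 at 5.99 TPM. TPM is per transcript length, so these levels may be set beside each other. In the Cd38-/- libraries Ssbp1 lay above Polg, Tfam above Tfb2m and Twnk above Tfb1m with no overlap of their ranges, and every other pair of neighbours in the order overlapped. In the Cd38+/+ libraries all neighbouring pairs overlapped. Within a library, Top1mt was the fourth most abundant of the 10 transcripts in Cd38+/+ replicates 1 and 2 and the fifth in replicate 3. It was the sixth to the eighth in the 3 Cd38+/- libraries, the fifth in Cd38-/- replicate 3 and the sixth in the other 5 Cd38-/- libraries.

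Top1mt, the mitochondrial type I topoisomerase (ENSMUSG00000000934, chr15:75657035-75678800 on the minus strand of GRCm38), was the 1 member that passed the test between genotypes. Its level was 25.31, 34.55 and 26.27 TPM in the 3 Cd38+/+ libraries. It was 14.35, 15.39 and 14.09 TPM in the Cd38+/- libraries. In the Cd38-/- libraries the lowest value was 15.00 TPM, the median 17.9 TPM and the highest 19.50 TPM. All 9 libraries with a disrupted allele were therefore below all 3 Cd38+/+ libraries, and the Cd38+/- and Cd38-/- libraries overlapped only at 15.00 TPM in Cd38-/- replicate 4 and 15.39 TPM in Cd38+/- replicate 2.

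**Figure D1:**
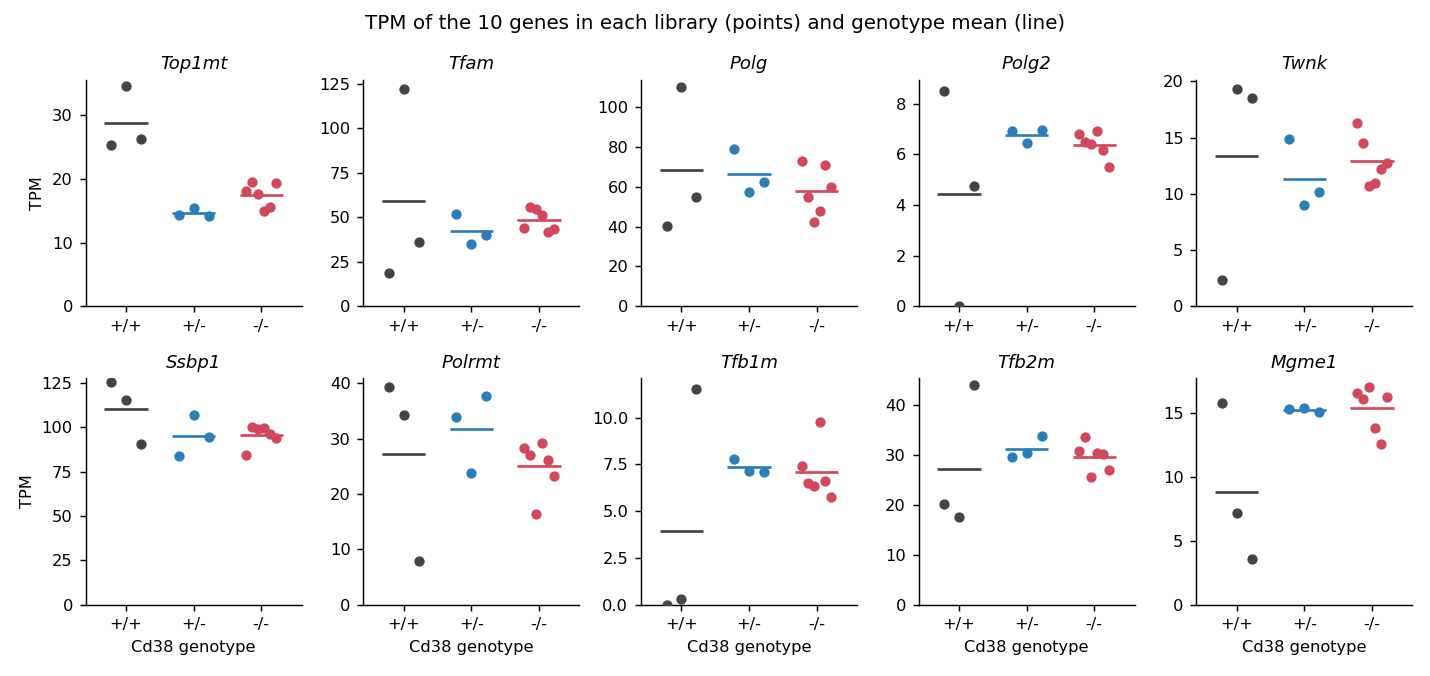
TPM of each of the 10 genes (vertical axes, from 0, scaled per gene) by Cd38 genotype, with 1 point a library and a line at the genotype mean. The Top1mt points of the 9 Cd38+/- and Cd38-/- libraries lie between 14.09 and 19.50 TPM, below the lowest Cd38+/+ point at 25.31 TPM, while for 7 of the other 9 genes all points of both these genotypes lie between the lowest and the highest Cd38+/+ point.

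Between Cd38-/- and Cd38+/+ libraries Top1mt fell by 0.67 on the log2(TPM + 1) scale (SE 0.20, 95% interval −1.12 to −0.23, n = 6 and 3, limma q = 0.0469). The two-sided exact permutation test gave p = 0.0119, the smallest that 6 libraries against 3 allow. A gene was called where q was under 0.05 and the fold change at least 1.2 in either direction, and 8.28% of the 11722 genes tested were called in this comparison, 1.86% as lower. The 1 member called of 10 is a share near that of all genes, and Top1mt was 1 of the 218 genes called as lower. The libraries did not overlap for 11.8% of the genes tested, and were all lower for 3.62%. The study itself singled out Top1mt on these libraries, as changed in both Cd38+/- and Cd38-/- astrocytes, so its call is not independent evidence. The call is narrow: q was 0.0829 with Benjamini-Hochberg adjustment, and leaving out Cd38+/+ replicate 2 or any 1 of the 6 Cd38-/- libraries took q to between 0.0544 and 0.104, with the change then between −0.54 and −0.70.

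Between Cd38+/- and Cd38+/+ libraries Top1mt differed by −0.92 (SE 0.29, 95% interval −1.58 to −0.25, n = 3 and 3), with an unadjusted p of 0.0128 in limma and a q of 0.191, so it did not pass. The study, by its own analysis, did count Top1mt among the genes changed in Cd38+/- astrocytes, so the 2 analyses differ here. With 3 libraries against 3 the exact permutation test cannot go below 0.1, the value it gave. None of the 11763 genes tested was called in that comparison (0%), although 1586 (13.5%) had an unadjusted p under 0.05, and other fits called 9 (without the trend), 30 (library quality weights), 663 (no filter on low values) and 1464 (all 12 libraries in one fit, Top1mt among them). The libraries did not overlap for 22.5% of all genes, 6.94% as lower, and Top1mt was the 1 member among them. Even Cd38, the disrupted gene, was not called between Cd38+/- and Cd38+/+ libraries (−0.44, limma q = 0.226), so a lack of calls there says little. Both comparisons rest on the same 3 Cd38+/+ libraries.

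The Cd38-/- and Cd38+/- libraries were compared with each other to ask whether loss of the second allele changed Top1mt further. Its level was 17.5 ± 1.91 TPM (SD, n = 6) in Cd38-/- and 14.6 ± 0.688 TPM (SD, n = 3) in Cd38+/- libraries. The difference was 0.24 on the log2 scale (SE 0.13, 95% interval −0.05 to 0.53, limma q = 0.376), with a two-sided exact permutation p of 0.0476. In this comparison 0.0346% of the 11563 genes tested were called, and 0 of the 10 members. The libraries did not overlap for 5.73% of the genes and for 0 of the members, and 11.2% of the genes but no member had an unadjusted p under 0.05. With library quality weights 27% of all genes were called, Top1mt among them at q = 0.00592 with Twnk and Polrmt.

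Neither subunit of the mitochondrial DNA polymerase passed between any of the genotypes. Polg, the catalytic subunit, was at 40.17, 110.41 and 55.15 TPM in Cd38+/+ and at 79.27, 57.21 and 62.25 TPM in Cd38+/- libraries. Its Cd38-/- libraries ran from 42.26 TPM over a median of 57.4 TPM to 72.94 TPM, and the highest and the lowest of all 12 values were both Cd38+/+. Polg2, the accessory subunit that holds the enzyme on its template, was at 8.52, 0 and 4.73 TPM in Cd38+/+ libraries. Values of 6.93, 6.45 and 6.96 TPM were found in Cd38+/- libraries, and of 5.51 to 6.91 TPM with a median of 6.45 TPM in Cd38-/- libraries. It was thus listed at 0 in Cd38+/+ replicate 2 and above all other libraries in replicate 1. Polg differed by −0.13 (95% interval −0.75 to 0.48, limma q = 0.457) between Cd38-/- and Cd38+/+ libraries, and Polg2 gave q = 0.191. Polg2, whose Cd38+/+ mean was under 5 TPM, was called without Cd38+/+ replicate 1, its highest there (limma q = 0.0459), in a fit that called 15.5% of all genes.

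Twnk, the replicative helicase, was at 2.36, 19.30 and 18.51 TPM in Cd38+/+ libraries, at 14.87, 8.99 and 10.15 TPM in Cd38+/- libraries and at 10.68 to 16.26 TPM in Cd38-/- libraries with a median of 12.4 TPM. One Cd38+/+ library was the lowest of all 12 and the other two the highest. Ssbp1, which coats the displaced single strand, was the most even of the Cd38+/+ values beside Top1mt, with 125.58, 115.69 and 90.67 TPM. It was at 83.80, 107.09 and 94.65 TPM in Cd38+/- libraries and at 84.55 to 100.46 TPM in Cd38-/- libraries with a median of 97.7 TPM. Its difference of −0.20 between Cd38-/- and Cd38+/+ libraries did not pass (95% interval −0.49 to 0.10, limma q = 0.223), though it was called at q = 0.0406 without Cd38+/+ replicate 3, in a fit that called 26.5% of all genes. Mgme1, the exonuclease that trims the ends made in replication, was at 15.77, 7.19 and 3.54 TPM in Cd38+/+ and at 15.28, 15.35 and 15.04 TPM in Cd38+/- libraries, and the Cd38-/- libraries ran from 12.56 to 16.99 TPM with a median of 16.1 TPM. The first Cd38+/+ library thus lay among those of the other genotypes and the other two lay below all of them. Mgme1 differed by 0.93 (SE 0.36, n = 6 and 3) between Cd38-/- and Cd38+/+ libraries, with a limma q of 0.0826 and a two-sided exact permutation p of 0.0357. It was called at q = 0.00920 without Cd38+/+ replicate 1, in a fit that called 15.5% of all genes.

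Among the transcription genes Tfam, which both packs the genome and starts its transcription, had the widest range in TPM: 18.78, 122.05 and 35.94 TPM in Cd38+/+ libraries. It was at 51.68, 34.98 and 40.08 TPM in Cd38+/- libraries and at 41.70 to 55.57 TPM in Cd38-/- libraries with a median of 47.7 TPM. Its lowest and highest values were both Cd38+/+, and the difference between Cd38-/- and Cd38+/+ turned with 1 library, from 0.13 with all 9 to −0.46 without Cd38+/+ replicate 1 and to 0.86 without replicate 2, where it was called at q = 0.0248 with 16.5% of all genes. Polrmt, the RNA polymerase, was at 39.31, 34.21 and 7.98 TPM in Cd38+/+ libraries, at 33.86, 23.82 and 37.71 TPM in Cd38+/- libraries and at 16.37 to 29.18 TPM in Cd38-/- libraries with a median of 26.6 TPM. Cd38+/+ replicate 3 was the lowest of all 12 and replicate 1 the highest.

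Tfb2m, the factor that opens the promoter for POLRMT, was at 20.08, 17.47 and 43.90 TPM in Cd38+/+ libraries, at 29.42, 30.36 and 33.72 TPM in Cd38+/- libraries and at 25.46 to 33.47 TPM in Cd38-/- libraries with a median of 30.25 TPM. Again the Cd38+/+ libraries held both ends of the range, and without replicate 3 Tfb2m was called as higher in Cd38-/- libraries (limma q = 0.0208), in a fit that called 26.5% of all genes. Tfb1m, its paralog that methylates the small mitochondrial ribosomal RNA, was listed at 0, 0.33 and 11.52 TPM in Cd38+/+ libraries. It was at 7.77, 7.15 and 7.12 TPM in Cd38+/- libraries and at 5.76 to 9.79 TPM in Cd38-/- libraries with a median of 6.55 TPM. Between Cd38-/- and Cd38+/+ libraries it gave an unadjusted limma p of 0.0292 and q = 0.0920, and it was called without Cd38+/+ replicate 3, its highest there, at q = 0.000685 in the fit that called 26.5% of all genes. Tfb1m and Polg2 had means under 5 TPM in Cd38+/+ libraries and entered the comparisons with that genotype only through the other one, so a call of either as higher carries little.

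**Figure D2:**
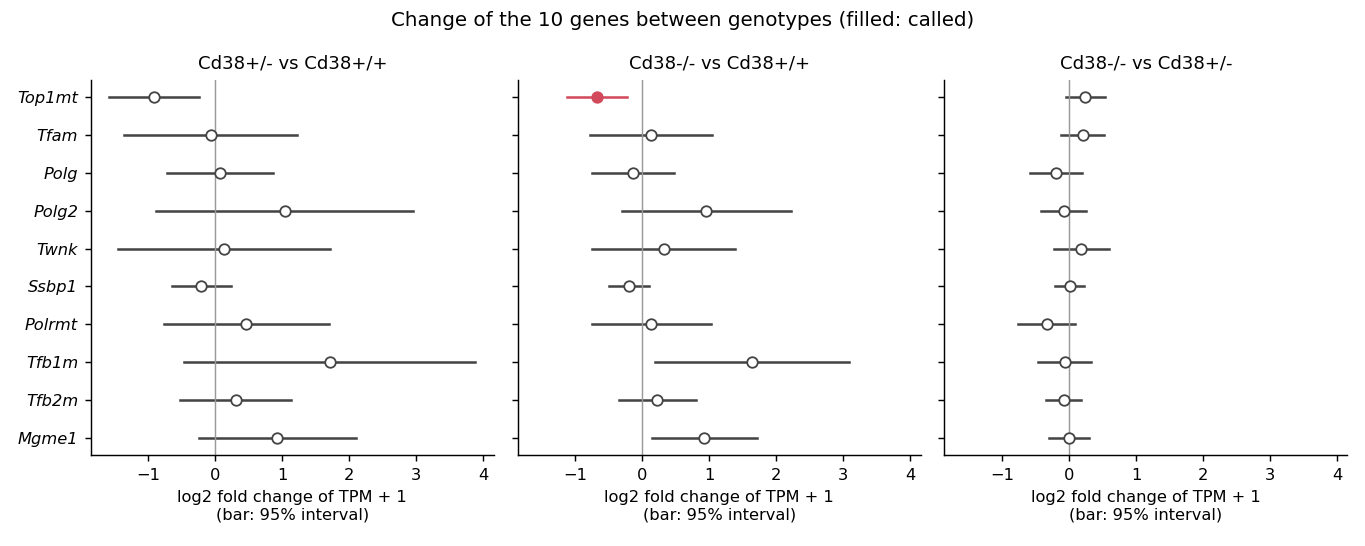
Difference of mean log2(TPM + 1) for each of the 10 genes in the 3 genotype comparisons, with 95% intervals from limma and the called gene filled. Top1mt is the called gene at −0.67 in Cd38-/- against Cd38+/+, and the intervals between Cd38-/- and Cd38+/- all lie within 1 log2 unit of 0.

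Across the other 9 members the Cd38-/- and Cd38+/+ libraries gave q values of 0.0826 to 0.496, and the Cd38+/- and Cd38+/+ libraries 0.283 to 0.607. Of the 10 members 7 were higher and 3 lower in both of these comparisons, which share their Cd38+/+ libraries. The median log2 difference of the 10 was 0.18 for Cd38-/- against Cd38+/+, beside 0.15 for all genes tested, and 0.22 for Cd38+/- against Cd38+/+, beside 0.18. For Cd38-/- against Cd38+/- it was −0.03, beside −0.02. Scaling the libraries by their median ratio took the median of all genes for Cd38-/- against Cd38+/+ from 0.15 to 0.03, and the share of higher genes among those called from 77.5% to 58.5%, or to 50.5% with quantile normalization. Top1mt stayed lower and called under both. The precision differed between comparisons: 95% intervals lay within 1 log2 unit of 0 for 10 of 10 members between Cd38-/- and Cd38+/-, where standard errors were 0.10 to 0.20, but for 3 of 10 between Cd38-/- and Cd38+/+ and for 2 of 10 between Cd38+/- and Cd38+/+. For the rest of the members a log2 difference of 1 lay within the interval.

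The members varied more between Cd38+/+ libraries than most genes did. The standard deviation of log2(TPM + 1) was highest in Cd38+/+ for 10 of 10 members and for 77.3% of the 11373 genes with a mean above 5 TPM. Its median over the members came to 1.07 for Cd38+/+, 0.137 for Cd38+/- and 0.171 for Cd38-/- libraries, beside 0.482, 0.197 and 0.230 for all those genes. Top1mt and Ssbp1 were the exceptions in Cd38+/+, at 0.237 and 0.242. The main limma fits took a single spread per gene, shared by both compared genotypes. Between Cd38-/- and Cd38+/+ libraries the smaller group had the wider spread for most genes, so p and q values there may be too low. For 7 of 10 members every Cd38+/- and Cd38-/- library lay inside the Cd38+/+ range, against 26.0% of all those genes. The 3 others were Top1mt, with all 9 libraries below that range, Ssbp1 with 2 below it and Mgme1 with 4 above it. The highest and the lowest values did not follow 1 Cd38+/+ library. Among these libraries Top1mt, Tfam, Polg and Twnk were highest in replicate 2, Tfb1m and Tfb2m in replicate 3, and Polg2, Polrmt, Ssbp1 and Mgme1 in replicate 1.

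**Figure D3:**
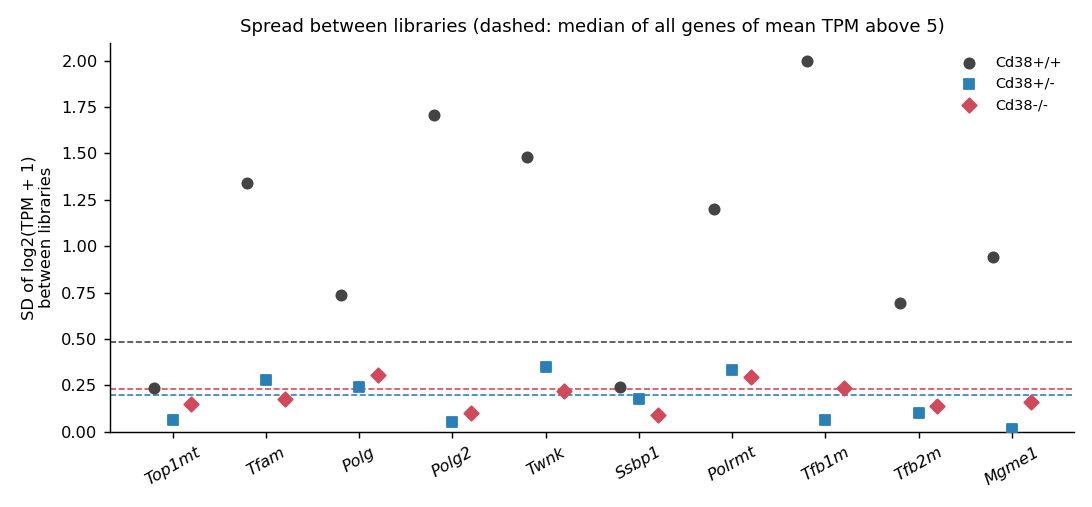
Standard deviation of log2(TPM + 1) between libraries (vertical axis, from 0) for each of the 10 genes, with 1 symbol per genotype (n = 3, 3 and 6) and dashed lines at the medians of all genes with a mean above 5 TPM. In Cd38+/+ libraries 8 of 10 genes lie above the dashed line at 0.482, and Top1mt and Ssbp1 lie below it.

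Set beside the rest of the machinery within each library, Top1mt was higher relative to the other 9 in Cd38+/+ than in the other libraries. The log2(TPM + 1) of Top1mt minus the mean of the other 9 came to 0.73 ± 0.25 in Cd38+/+ (SD, n = 3, range 0.46 to 0.96), −0.67 ± 0.16 in Cd38+/- (SD, n = 3, range −0.80 to −0.48) and −0.39 ± 0.18 in Cd38-/- libraries (SD, n = 6, range −0.64 to −0.17). The Cd38+/+ values were all above 0 and the other 9 all below it. Both parts of the difference moved: the mean of the other 9 averaged 4.15 for Cd38+/+, 4.63 for Cd38+/- and 4.60 for Cd38-/- libraries, and Top1mt itself averaged 4.88, 3.96 and 4.21. Polg2 and Tfb1m, listed at 0 in a Cd38+/+ library each, lower the mean of the others there. Without this pair the values were 0.013, −1.13 and −0.86, so that Top1mt was level with the others in Cd38+/+ libraries and not above them, and the Cd38+/+ libraries still did not overlap the rest. The 3 genotypes are few points, and no test was made of this difference. Top1mt, which the study had singled out on these libraries, by itself already set all 9 other libraries below the Cd38+/+ ones. The lack of overlap here is therefore not separate support.

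**Figure D4:**
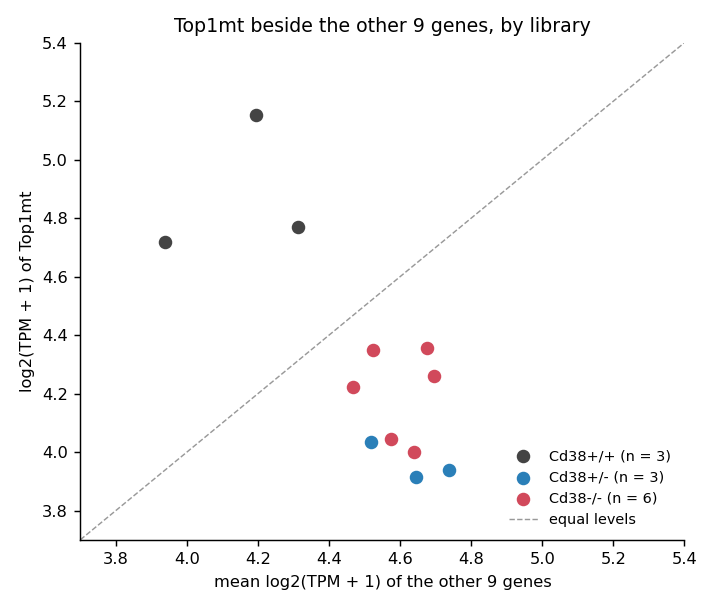
Level of Top1mt against the mean level of the other 9 genes, both as log2(TPM + 1), with 1 point per library and a dashed line where both are equal. The 3 Cd38+/+ libraries lie above the line by 0.46 to 0.96 and the 9 others below it by 0.17 to 0.80.

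Over the 12 libraries the member whose log2(TPM + 1) was most like that of Top1mt was Ssbp1 (Pearson r = 0.516), and the least like were Mgme1 (−0.62), Tfb1m (−0.67) and Polg2 (−0.70). Among 11721 other genes the 5 most like it were Ypel3 (0.953), Sra1 (0.947), Gimap9 (0.941), Atpsckmt (0.936) and Imp4 (0.931). Top1mt was higher in every Cd38+/+ library than in any other. The coefficients thus describe a shared difference between Cd38+/+ and the other libraries more than a relation within genotypes. Atpsckmt, a methyltransferase of the mitochondrial ATP synthase, was at 16.16 to 26.10 TPM in Cd38+/+, 9.54 to 11.77 TPM in Cd38+/- and 9.26 to 11.96 TPM in Cd38-/- libraries. Imp4, a factor of nucleolar ribosomal RNA processing, was at 58.85 to 74.43, 34.49 to 36.30 and 33.28 to 44.72 TPM. In both the Cd38+/+ libraries lay above all others.

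None of the other topoisomerases was called as lower. Top1, its nuclear paralog, was at 15.42 to 29.07 TPM in Cd38+/+, 24.24 to 34.40 TPM in Cd38+/- and 22.00 to 34.95 TPM in Cd38-/- libraries, and the difference of 0.27 between Cd38-/- and Cd38+/+ libraries did not pass (SE 0.25, limma q = 0.299). Top3a, which separates linked circles of nuclear and mitochondrial DNA, was at 0 to 6.00 TPM in Cd38+/+ and at 6.46 to 12.14 TPM in Cd38-/- libraries and was called as higher (limma q = 0.0362). With a Cd38+/+ mean of 2.34 TPM it entered the test through the Cd38-/- libraries alone, so its call carries little, and with a library at 0 no fold is given. Leaving out each library in turn kept the call 4 times of 9. It was the 1 called of the 5 listed topoisomerases besides Top1mt, where 8.28% of all genes were called. Top2b (q = 0.0509) and Top3b (q = 0.0697) did not pass in limma, at 16.43 to 35.78 and 12.26 to 51.30 TPM in Cd38+/+ against 29.27 to 60.06 and 56.40 to 74.57 TPM in Cd38-/- libraries. Top2a, of dividing cells, was between 0.32 and 11.76 TPM in all libraries.

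Of 70 further nuclear genes listed for this pathway, the topoisomerases included, 67 were tested between Cd38-/- and Cd38+/+ libraries. For 60 of them the mean was above 5 TPM in both genotypes, and 6 of these were called, all as higher, a share of 10%. Of all genes with both means above 5 TPM 5.16% were called as higher and 1.88% as lower. Another 3 calls, Top3a, Fastkd5 and Primpol, were among the 4 listed genes that passed the filter on low values through the Cd38-/- libraries alone, where they could hardly have been called as lower, and 32% of all such genes were called as higher. With these 3 the count over the 67 was 9, or 13.4% beside 6.42%. At an unadjusted limma p under 0.05 there were 23 higher (34.3%) and 1 lower (1.49%) of the 67. Of all 11722 genes 2065 were higher and 702 lower at that threshold, 23.6% in either direction. The count of 9 was 6 with median-ratio scaling and 7 with quantile normalization, again with 0 lower. Without Cd38-/- replicate 1, 2, 5 or 6 it was 1, where 0.633% to 1.31% of all genes were called in either direction. Without Cd38+/+ replicate 3 it was 17 higher and 3 lower, where 26.5% of all genes were called. With library quality weights it was 0 of the 67 and 1 of all genes. None of the listed genes was called between Cd38+/- and Cd38+/+ or between Cd38-/- and Cd38+/- libraries. An unadjusted limma p under 0.05 was found there for 9 of 66 genes in the first, all higher, 13.6% beside 13.5% of all genes, and for 1 of 65 in the second, 1.54% beside 11.2%. With all 12 libraries in one fit 10 of the 66 were called, all higher, 15.2% beside 12.4% of all genes. With library quality weights 7 of the 65 were called as higher and 4 as lower, 16.9% beside 27%.

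In mitochondrial RNA processing and decay 3 of 20 genes were called as higher and 0 as lower in Cd38-/- against Cd38+/+ libraries. Of all genes tested 6.42% were called as higher and 1.86% as lower. The lists are small, so counts of calls within 1 list are not read as results about it. Fastkd5, needed to mature transcripts that no tRNA flanks, was at 0 to 2.02 TPM in Cd38+/+, 10.29 to 13.72 TPM in Cd38+/- and 8.95 to 14.58 TPM in Cd38-/- libraries (limma q = 0.00491). Its Cd38+/+ mean was 0.74 TPM, so it too was tested only through the Cd38-/- libraries and its call as higher carries little, also where it was kept. It was called 9 times of 9 when a single library was left out, but not with library quality weights (q = 0.110) or with the replicate block (q = 0.318). Lrpprc, which stabilises mitochondrial mRNAs, was at 7.33 to 18.31 TPM in Cd38+/+ and 23.40 to 37.91 TPM in Cd38-/- libraries, a difference of 1.25 (SE 0.27, limma q = 0.0207) that kept its call 5 times of 9. Grsf1, an RNA granule protein, differed by 0.74 (limma q = 0.0429), but its libraries overlapped and it was called in 3 of the 9. Ptcd2, at 18.83 to 39.17 TPM in Cd38+/+ and 39.78 to 47.69 TPM in Cd38-/- libraries, did not pass (limma q = 0.0554).

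Of the 7 nucleoid proteins 2 were called, both as higher, and neither call held throughout. The share called as higher among all genes was 6.42%, beside which the counts of this paragraph stand. Atad3a, an inner membrane ATPase at the nucleoid, was at 33.86 to 51.89 TPM in Cd38+/+, 65.89 to 74.44 TPM in Cd38+/- and 57.52 to 76.05 TPM in Cd38-/- libraries, a difference of 0.65 between the first and the last (SE 0.17, limma q = 0.0330) that was called in 5 of the 9 fits without 1 library. Hspa9, the mitochondrial Hsp70, differed by 0.62 (limma q = 0.0480), with overlapping libraries, and kept its call in 1 of the 9 and in 5 of 13 other alternatives. In transcription elongation and termination Mterf4, which guides an rRNA methyltransferase to the mitochondrial ribosome, was the 1 called of 6, at 23.78 to 26.55 TPM in Cd38+/+, 33.80 to 41.07 TPM in Cd38+/- and 35.93 to 46.57 TPM in Cd38-/- libraries (0.75, SE 0.16, limma q = 0.0207), and was called in 5 of the 9. In replication and repair 1 of 9 tested was called: Primpol, the primase-polymerase that restarts stalled forks, listed at 0 to 2.55 TPM in Cd38+/+ and at 4.37 to 6.42 TPM in Cd38-/- libraries (limma q = 0.0382). Its Cd38+/+ mean of 1.38 TPM was under the filter, so this call rests on a test it entered through the Cd38-/- libraries alone, and it was kept in 3 of the 9.

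For nucleotide supply 1 of 13 was called, beside 8.28% of all genes. Tk2, the mitochondrial thymidine kinase, was at 20.82 to 41.34 TPM in Cd38+/+, 42.45 to 50.00 TPM in Cd38+/- and 41.38 to 50.22 TPM in Cd38-/- libraries (0.67, SE 0.20, limma q = 0.0466), and its call as higher was kept in 3 of the 9 fits without 1 library. Mpv17, an inner membrane protein whose loss depletes mitochondrial DNA, was the 1 gene of the 67 with an unadjusted p under 0.05 in the lower direction, at 158.18 to 211.49 TPM in Cd38+/+ and 127.65 to 155.85 TPM in Cd38-/- libraries, and did not pass (−0.35, SE 0.13, limma q = 0.0738). None of the 7 tested regulators of mitochondrial biogenesis was called. Nrf1, a factor that drives nuclear genes of the mitochondrion, was at 21.89 to 26.07 TPM in Cd38+/+, 35.87 to 42.39 TPM in Cd38+/- and 28.80 to 43.24 TPM in Cd38-/- libraries (limma q = 0.0857), and Esrra at 6.04 to 14.04, 17.49 to 20.31 and 13.34 to 18.53 TPM (limma q = 0.108). The 13 mRNAs and 2 rRNAs that the mitochondrial genome itself encodes were not analysed here.

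**Figure D5:**
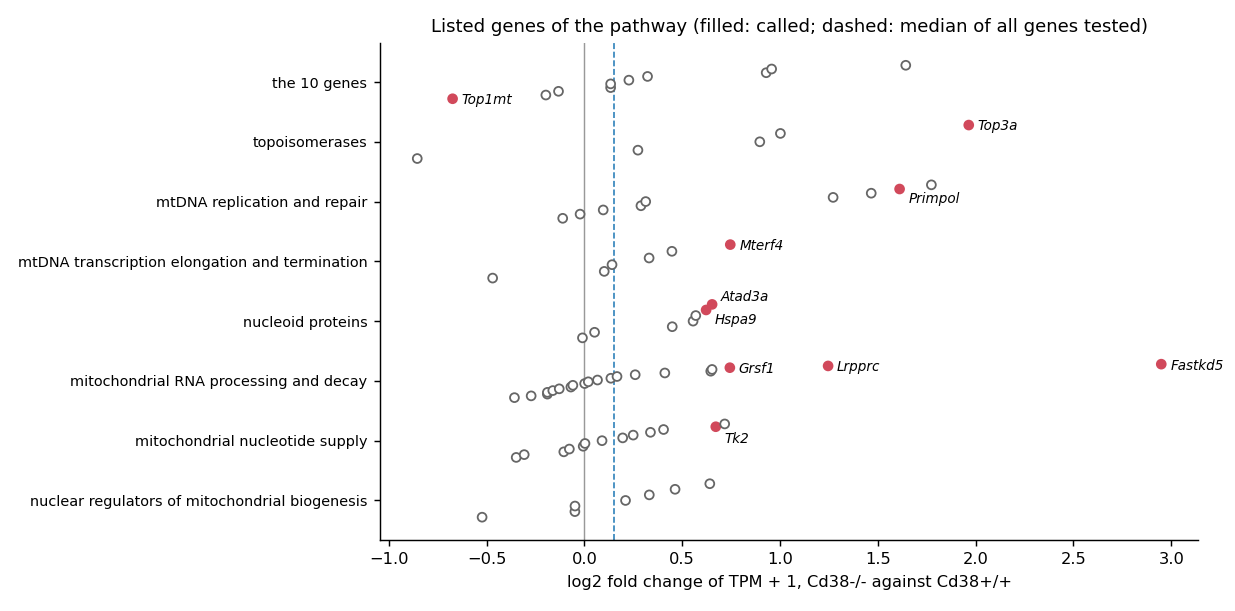
Difference of mean log2(TPM + 1) between Cd38-/- and Cd38+/+ libraries for each tested gene of 8 lists, with called genes filled and named and a dashed line at the median of all genes tested, 0.15. Top1mt is the called gene left of 0, and the 9 others lie right of it. Among those, Top3a, Fastkd5 and Primpol passed the filter on low values through the Cd38-/- libraries alone and could hardly have been called left of 0.

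Strand use in counting was not stated in the sources used here, and 6 members share exon bases with a gene on the opposite strand whose reads cannot then be told apart. Polg shares 921 bases with Fanci (8.6% of its exon bases), Twnk 507 with Mrpl43 (12.6%), Mgme1 206 with Snx5 (6.2%), Tfb1m 142 with Tiam2 (3.9%), Polg2 132 with Milr1 (3.0%) and Top1mt 95 with Gm15945 (4.7%), an antisense gene not analysed here. Between Cd38-/- and Cd38+/+ libraries Snx5 differed by 0.41 (limma q = 0.0629), Tiam2 by 0.31 (q = 0.260) and Mrpl43 by −0.30 (q = 0.231), so that none of the 3 tested was called.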

How the data were processed

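RNA of 12 astrocyte libraries was measured by paired-end sequencing after SMART-Seq v4 amplification. The labels call the molecule polyA RNA and the design text describes rRNA depletion. Per the submitters' processing notes, the tools were Trim Galore 0.6.4, STAR 2.7.1a, RSEM 1.2.28 and DESeq2 1.36.0 with the genome build mm10. The authors deposited 1 table of TPM with 2 decimals, and each library sums to 1000000, so depth is unknown and arises in no interval here. The annotation version was not given in the sources used here. Positions and exon overlaps came from GENCODE on GRCm38, and promoter letters from RefSeq on GRCm38.p6.

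Genes with a mean above 5 TPM in at least 1 compared genotype were fitted as log2(TPM + 1) in limma 3.58.1 (R 4.3.3; eBayes with trend), only the compared genotypes entering each of the 3 fits, without covariates. Storey q values were computed over all genes tested from lambda 0.05 to 0.95, and a gene was called where q was under 0.05 and the fold at least 1.2. Fold changes on this scale understate those of low genes. Exact permutation tests were two-sided, on the difference of mean log2(TPM + 1). The test was tried on simulated data with the same spread in both genotypes. That trial cannot show how the test behaves where the spreads differ, as they do here. Tables and plots were made in Python 3.11.15 with pandas 2.3.3, scipy 1.17.1 and matplotlib 3.10.9.

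All 10 members are named. Of the other lists, genes are named that were called, with up to 4 more a list by the smallest unadjusted p in Cd38-/- against Cd38+/+, Top1 as the nuclear paralog, the 5 genes with the highest Pearson r with Top1mt, and genes that share exon bases with a member. The members and the lists were chosen with earlier results of these data known. The alternatives were pseudocounts, filters, Benjamini-Hochberg adjustment, eBayes without trend, library weights, 2 scalings, all 12 libraries in one fit, a replicate block, a length and GC correction and leaving out each library. Summed levels of 10 marker lists were taken per library: neuronal genes summed to 39.1 to 128 TPM, microglial to 107 to 171 TPM, oligodendrocyte to 1584 to 18031 TPM, endothelial to 360 to 2004 TPM, mural and fibroblast to 514 to 1144 TPM and ependymal to 3006 to 6235 TPM over all libraries.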

Additional observations from a re-analysis of the deposited data

How the results depend on the processing

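The direction of Top1mt was kept in all 13 alternative fits and in every fit without 1 library, in each of the 3 comparisons, but its call was not. Of 10 members, 1 was called between Cd38-/- and Cd38+/+ libraries. The count was 0 where every library had to hold 1 TPM (Top1mt −0.67, q = 0.0537) and with Benjamini-Hochberg adjustment (−0.67, q = 0.0829). It was 0 too with library quality weights (−0.63, q = 0.416) and with the length and GC correction (−0.53, q = 0.107). In this order the fits called 7.17%, 2.78%, 0.00853% and 8.74% of all genes. With the replicate block it was 0 and Top1mt −0.60 (q = 0.467), and with the replicate block and that correction 0 and −0.44 (q = 0.605). Each fit with the block called 0.0171% of all genes, so a count of 0 members says little there. With all 12 libraries in one fit, where the other groups share one spread, the count was 2 (Top1mt and Mgme1), beside 15.5% of all genes. Without 1 library it was 0 to 4 and Top1mt −0.75 to −0.54: 3 without Cd38+/+ replicate 1, 4 without replicate 3, 1 without replicate 2 (Tfam) and 0 without any of the Cd38-/- libraries. The same fits called 15.5%, 26.5%, 16.5% and 0.633% to 6.79% of all genes. Between Cd38+/- and Cd38+/+ libraries the count of 0 became 1 with all 12 in one fit (Top1mt −0.92, q = 0.0155), beside 12.4% of all genes. Between Cd38-/- and Cd38+/- libraries it became 3 with quality weights (Top1mt 0.31, Twnk and Polrmt), beside 27% of all genes. Calls among all genes moved likewise, from 970 between Cd38-/- and Cd38+/+ libraries to 1 with quality weights, from 4 between Cd38-/- and Cd38+/- libraries to 3120, and from 0 between Cd38+/- and Cd38+/+ libraries to 1464 with all 12 in one fit and 663 without a filter. Why they moved was not tested.

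Top1mt minus the other 9, on the log2 scale, differed by −1.40 between Cd38+/- and Cd38+/+ libraries and by −1.12 between Cd38-/- and Cd38+/+ libraries. With pseudocounts of 0.1 and 5, chosen after seeing the data, the first became −1.76 and −1.01 and the second −1.46 and −0.78. The Cd38+/+ libraries overlapped no other in any of these settings, in the 2 others tried (the median of the others, and leaving out Polg2 and Tfb1m) or without any 1 library. Since Top1mt alone already separates these libraries, that is not separate support.

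Among the 9 other members several small differences changed sign. Between Cd38+/- and Cd38+/+ libraries Tfam became 0.0065 with quality weights, Twnk −0.17 with quantile normalization, and Polg −0.072 with median-ratio scaling and −0.16 with the length and GC correction, with or without the replicate block. Leaving out 1 library there gave −0.66 to 0.66 for Tfam, −0.25 to 0.47 for Polg, −0.72 to 0.58 for Twnk and −0.22 to 0.86 for Polrmt. Between Cd38-/- and Cd38+/+ libraries Polrmt became −0.015 with quantile normalization, and leaving out 1 library gave −0.46 to 0.86 for Tfam, −0.45 to 0.27 for Polg, −0.0044 to 1.62 for Polg2, −0.53 to 0.76 for Twnk, −0.56 to 0.53 for Polrmt and −0.018 to 0.62 for Tfb2m. Between Cd38-/- and Cd38+/- libraries Ssbp1 became −0.0051 with the replicate block and −0.0030 with the block and the correction, Mgme1 −0.039 with the correction alone, and leaving out 1 library gave −0.075 to 0.10 for Ssbp1 and −0.025 to 0.057 for Mgme1.

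Whether the replicate numbers pair the libraries is not known, since only same-numbered libraries were compared. Same-numbered libraries deviated from their genotype means with correlations of −0.0037 to 0.0439 for Cd38+/- and Cd38+/+, −0.094 to −0.035 for Cd38-/- and Cd38+/+ and −0.33 to 0.46 for Cd38-/- and Cd38+/- libraries. Fits without 1 library kept at least 2 in each genotype. Depth cannot be read from TPM, so what a value near 0 allows is not known.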
